A study of Homo sapiens with 10 samples.

Results

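The untreated culture was represented by 2 of the 10 arrays of the series, a control labelled 24 h and a control labelled 0 h, and it was described by the level on the 24 h control minus the level on the 0 h control. The cells were MIA PaCa-2, an established human pancreatic carcinoma line, profiled on Affymetrix U133 Plus 2.0 arrays. The other 8 arrays came from cells given supernatant of pancreatic stellate cells, the fibroblast-like cells of the pancreas, which had themselves been primed with pooled supernatant of tumour cell lines. Those cells were collected after 1, 2, 3, 4, 5, 6, 7 and 24 h of exposure. The controls received no such supernatant according to their descriptions, although their titles carry the same treatment wording as the other arrays. All arrays were of total RNA from the same line. The labels do not say whether the medium of the controls was exchanged at 0 h or at any later time, nor whether the 2 controls were separate dishes, so elapsed time and any handling of the dishes cannot be told apart.

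Each group held 1 array. There was no replicate, no test was possible, and every difference below is the difference between 2 arrays, given by its size alone. Levels are log2 intensities and differences are in log2 units, in which 1 is a 2-fold difference. A gene was read from the probe set with its highest mean level, and 14439 of 19775 genes reached a mean level of 4.95 or more over the 10 arrays and were compared.

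Cell line markers were set side by side in the controls. VIM, the intermediate filament of mesenchymal cells that this line is known to carry, was at 14.55 in the 24 h control and 14.57 in the 0 h control. KRT8, a keratin of simple epithelia, was at 11.36 in the 24 h control and 11.84 in the 0 h control, while EPCAM (3.20 in the 24 h control, 3.09 in the 0 h control) and CDH1 (3.79 in the 24 h control, 3.38 in the 0 h control) lay under the level needed for comparison. S100P, in the same list, was 2-fold apart and is given with its list below. CDKN2A, a gene this line is known to have lost, was nevertheless at 7.27 in the 24 h control and 6.91 in the 0 h control, and MTAP, lost with it, was at 5.53 in the 24 h control and 5.33 in the 0 h control. A level above the filter therefore does not by itself show a transcript, and the size of a difference against a level under the filter is uncertain. Of 15 stellate cell and fibroblast markers, 5 lay under the filter level on both controls, namely PDGFRA, PDGFRB, LUM, FAP and POSTN. Others were well above it, among them RGS5 (12.64 in the 24 h control, 12.65 in the 0 h control), COL1A2 (12.23 in the 24 h control, 12.16 in the 0 h control) and ACTA2 (8.88 in the 24 h control, 8.51 in the 0 h control), and the summed log2 level of all 15 was 97.4 in the 24 h control and 96.5 in the 0 h control. Of 9 leukocyte, endothelial and red cell markers, PTPRC, MS4A1 and VWF lay under the filter level on both controls. Among those above it were CDH5 (7.85 in the 24 h control, 7.36 in the 0 h control), CD14 (7.63 in the 24 h control, 7.72 in the 0 h control) and the red cell gene HBB (6.54 in the 24 h control, 6.44 in the 0 h control). The summed levels of all 9 were 51.5 in the 24 h control and 50.1 in the 0 h control. The 3′ minus 5′ level of ACTB, a measure of RNA integrity, was 0.290 in the 24 h control and 0.289 in the 0 h control, against 0.328 to 0.652 on the treated arrays. For GAPDH it was 0.025 in the 24 h control and 0.046 in the 0 h control, within the treated range of -0.009 to 0.101. The control probe sets dap, lys, phe and thr averaged 9.60 in the 24 h control and 9.75 in the 0 h control, against 9.71 to 10.26 on the treated arrays. Those of bioB, bioC, bioD and cre averaged 10.82 in the 24 h control and 10.75 in the 0 h control.

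Cells that run short of amino acids, or whose endoplasmic reticulum is stressed, phosphorylate the initiation factor eIF2, which slows translation in general but raises that of ATF4. ATF4 is a transcription factor that, with partners of the C/EBP family, turns on amino acid synthesis enzymes, amino acid transporters, aminoacyl-tRNA synthetases and stress regulators. Proliferating cells follow another programme: E2F factors turn on the genes of DNA replication before S phase, and the MuvB complex with B-MYB and FOXM1 turns on the genes of mitosis in G2. A bulk RNA measurement cannot tell fewer cells in a stage of the cycle from less RNA per cell.

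Promoters of members of the lists described below are printed first, to show matches to sequence elements known for these gene groups. Whether a printed match is an element known to act on its own gene was not tested. Within each group, members were taken in order of the size of their difference. Members without a match wholly before the start, on an excluded chromosome or with an incomplete sequence were passed over. The printed promoters therefore do not show how often an element occurs. Each is the 250 bases before a RefSeq start of the gene on GRCh38.p14, read 5′ to 3′ on the strand of the gene. Where several starts of a gene were listed, the first was used, here and in the counts below, and other starts were not searched. In the following 3 promoters the capitals mark a match to the C/EBP-ATF response element, searched as TGATGNAA on both strands. ATF3 (chr1:212565157-212565406, plus strand) encodes a stress-induced transcription factor, CHAC1 (chr15:40953221-40953470, plus strand) an enzyme that degrades glutathione, and ASNS (chr7:97872409-97872658, minus strand) asparagine synthetase. All were more than 3-fold higher in the 24 h control. The match in ASNS ended 60 bases before the start.
ATF3: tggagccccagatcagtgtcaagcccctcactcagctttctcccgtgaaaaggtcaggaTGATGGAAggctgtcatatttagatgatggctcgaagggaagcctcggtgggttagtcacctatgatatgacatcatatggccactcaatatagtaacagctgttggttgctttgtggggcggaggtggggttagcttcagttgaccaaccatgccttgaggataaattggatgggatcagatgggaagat
CHAC1: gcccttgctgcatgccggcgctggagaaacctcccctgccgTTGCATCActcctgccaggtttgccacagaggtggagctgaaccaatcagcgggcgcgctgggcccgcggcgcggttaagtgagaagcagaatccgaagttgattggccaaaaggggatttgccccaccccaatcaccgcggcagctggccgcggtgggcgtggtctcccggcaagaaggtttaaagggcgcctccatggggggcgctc
ASNS: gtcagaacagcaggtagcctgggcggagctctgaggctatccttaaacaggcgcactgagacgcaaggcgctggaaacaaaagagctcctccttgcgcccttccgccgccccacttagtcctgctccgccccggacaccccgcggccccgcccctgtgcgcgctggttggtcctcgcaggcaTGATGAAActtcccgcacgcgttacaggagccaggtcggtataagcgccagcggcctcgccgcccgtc

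In the next 3 promoters the capitals mark a match to an E2F element, searched as TTTGGCGC or TTTCCCGC on both strands. GINS2 (chr16:85688955-85689204, minus strand) encodes a subunit of the replicative helicase, CDT1 (chr16:88803539-88803788, plus strand) a factor that loads that helicase onto DNA, and MCM7 (chr7:100101398-100101647, minus strand) a subunit of its core ring. All were lower in the 24 h control by 2-fold or more.
GINS2: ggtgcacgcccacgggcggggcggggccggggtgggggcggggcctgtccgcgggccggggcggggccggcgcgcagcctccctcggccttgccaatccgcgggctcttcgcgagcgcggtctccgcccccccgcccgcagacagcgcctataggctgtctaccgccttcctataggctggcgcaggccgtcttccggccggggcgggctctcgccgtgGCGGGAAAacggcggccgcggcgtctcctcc
CDT1: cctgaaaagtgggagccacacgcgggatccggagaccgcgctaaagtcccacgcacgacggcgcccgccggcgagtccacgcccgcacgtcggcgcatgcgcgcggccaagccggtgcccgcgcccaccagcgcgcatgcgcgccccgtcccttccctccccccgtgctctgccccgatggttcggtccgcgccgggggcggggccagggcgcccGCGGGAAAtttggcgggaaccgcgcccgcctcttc
MCM7: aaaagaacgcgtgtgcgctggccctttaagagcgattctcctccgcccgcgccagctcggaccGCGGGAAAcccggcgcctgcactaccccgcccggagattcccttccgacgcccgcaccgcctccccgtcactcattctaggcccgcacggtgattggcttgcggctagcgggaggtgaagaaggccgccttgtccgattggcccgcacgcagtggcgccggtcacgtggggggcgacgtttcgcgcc

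In the last pair the capitals mark a match to the cell cycle genes homology region, searched as TTTGAA on both strands. MuvB is known to bind elements of this kind, and binding to these matches was not tested. SPC25 (chr2:168890431-168890680, minus strand) encodes a kinetochore protein and DLGAP5 (chr14:55191586-55191835, minus strand) a protein that stabilises the fibres of the spindle. The match in SPC25 ended 241 bases before the start, and the DLGAP5 promoter held 2 matches. None of these patterns contains another.
SPC25: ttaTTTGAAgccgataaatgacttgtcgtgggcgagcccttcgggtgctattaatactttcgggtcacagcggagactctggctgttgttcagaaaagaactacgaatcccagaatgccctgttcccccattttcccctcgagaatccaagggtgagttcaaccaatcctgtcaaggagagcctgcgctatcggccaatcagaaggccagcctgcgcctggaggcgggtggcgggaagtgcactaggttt
DLGAP5: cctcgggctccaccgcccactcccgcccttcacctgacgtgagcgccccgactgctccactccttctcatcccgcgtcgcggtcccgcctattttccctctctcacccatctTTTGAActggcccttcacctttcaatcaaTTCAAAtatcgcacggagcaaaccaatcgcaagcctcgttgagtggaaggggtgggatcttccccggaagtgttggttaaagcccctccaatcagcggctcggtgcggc

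How often each element occurred was counted over a window of 250 bases before and 50 bases after the start, which was on hand for 11524 of the 14439 genes compared. The C/EBP-ATF element was present in 13 of 54 promoters (24.1%) of the amino acid response lists described below, against 235 (2.04%) of all genes compared. The E2F element was present in 23 of 75 promoters (30.7%) of the lists for licensing, the replication fork, G1/S and nucleotide synthesis, against 387 (3.36%). The homology region was present in 44 of 72 promoters (61.1%) of the kinesin, G2/M and spindle lists, against 1150 (9.98%). These lists hold many known targets of the same factors and were chosen with earlier results of these data known. Their shares are therefore partly fixed by the choice of members. Among genes that stood in none of the lists, the homology region was present in 19 of 73 promoters (26.0%) of those 2-fold lower in the 24 h control and in 4 of 48 (8.33%) of those 2-fold higher. The E2F element was present in 8 of 73 (10.96%) of the lower set and 1 of 48 (2.08%) of the higher set, and the C/EBP-ATF element in 5 of 73 (6.85%) of the lower set and 5 of 48 (10.4%) of the higher set. A match is a run of letters and no evidence that a factor bound there.

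Over all genes compared, 108 (0.748%) were 2-fold or more higher in the 24 h control and 181 (1.25%) were 2-fold or more lower. The lower set was the longer one at 2-fold, 289 genes (2.0%) being apart either way. The largest differences lay on the higher side: at 1.5-fold 403 (2.79%) were higher and 692 (4.79%) lower, at 3-fold 39 (0.27%) higher and 23 (0.159%) lower, and at 4-fold 21 (0.145%) higher and 3 (0.0208%) lower. Those 3 were GINS2, KIF20A and UHRF1. The median difference was -0.01, 7077 genes (49.0%) were above 0, and the SD over genes was 0.357. The 6 differences between neighbouring treated hours, which use neither control, had SDs of 0.149 to 0.256. They held 30, 20, 10, 5, 1 and 5 genes 2-fold apart from the first pair of hours to the last, or 0.208%, 0.139%, 0.0693%, 0.0346%, 0.00693% and 0.0346%. Of 3 equal parts of the genes by mean level, the lowest held 23 that were 2-fold higher and 15 lower, the middle one 40 higher and 95 lower, and the highest 45 higher and 71 lower.

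Genes of the amino acid response were higher in the 24 h control and genes of the cell cycle and of DNA replication were lower. Across 4 lists of the amino acid response, 69 genes were measured, 60 of them were above 0, and the median difference was 0.89. They supplied 31 of the 108 genes 2-fold higher (28.7%) and 0 of the 181 lower. Across 9 lists of the cell cycle and replication, 209 genes were measured, 192 were below 0, and the median difference was -0.85. They supplied 83 of the 181 genes 2-fold lower (45.9%) and 1 of the 108 higher, which was CDKN1A. All of these lists were chosen with earlier results of these data known. The medians and shares of both groups are therefore partly fixed by that choice and are a description only.

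**Figure D1:**
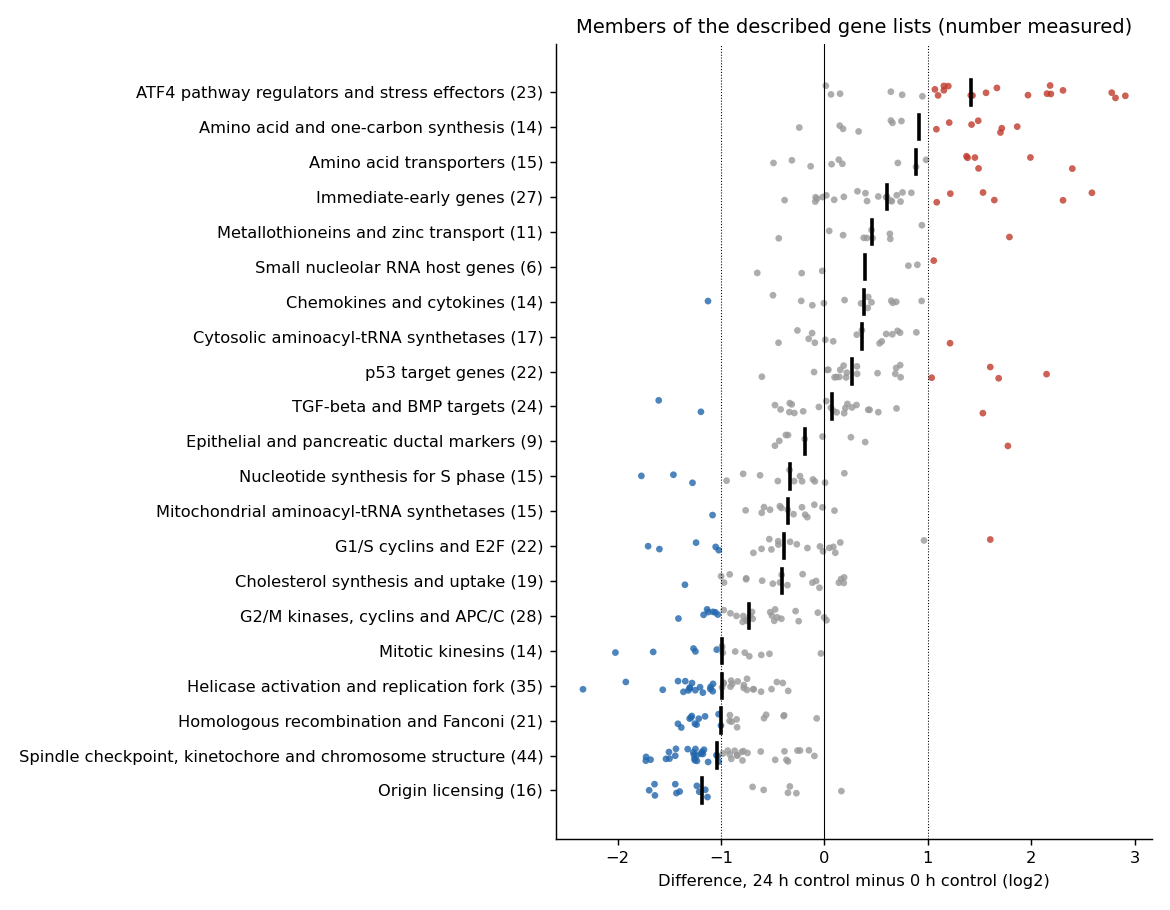
Differences in log2 units, 24 h control minus 0 h control, for every measured member of the gene lists described in the text, with 1 point per gene, a black bar at the list median and dotted lines at 2-fold. Red points were 2-fold or more higher and blue points 2-fold or more lower in the 24 h control. The members of the ATF4 list lie to the right of 0 (median 1.42) and those of the licensing and spindle lists lie to the left (medians -1.18 and -1.04), apart from the licensing gene ORC5 at 0.16.

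The regulators and stress effectors downstream of ATF4 stood highest. All 23 measured members were above 0, 17 were 2-fold or more higher, 0 were 2-fold lower, and their median difference was 1.42. GDF15, a stress-induced cytokine of the TGF-beta family, was at 10.39 in the 24 h control and 7.48 in the 0 h control, a difference of 2.91 or 7.51-fold. NUPR1, a small stress-induced chromatin protein, was at 9.71 in the 24 h control and 6.93 in the 0 h control, a difference of 2.78. RAB39B, a small GTPase of vesicle traffic, was at 7.39 in the 24 h control and 4.58 in the 0 h control, where it lay under the filter level.

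The transcription factor ATF3 was at 9.54 in the 24 h control and 7.23 in the 0 h control, and its 2 further probe sets differed by 0.48 and 1.47. SESN2, an inhibitor of mTORC1 that senses leucine, was at 10.83 in the 24 h control and 8.65 in the 0 h control, and its further probe set differed by 1.87. CHAC1 was at 9.39 in the 24 h control and 7.20 in the 0 h control. These genes act at different points of the stress response, from sensing to transcription and glutathione breakdown. ATF4 itself, which is controlled mainly in translation, was at 12.80 in the 24 h control and 12.05 in the 0 h control, a difference of 0.75 that did not reach 2-fold. DDIT3 (CHOP), the factor that ties prolonged stress to cell death, differed by 1.15, and TRIB3, a pseudokinase that restrains ATF4, by 1.67. KLHL24 (0.15), ADM2 (0.06) and STC2 (0.01) were the 3 members with the smallest differences.

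The enzymes that make amino acids and one-carbon units were next, with 7 of 14 measured genes 2-fold or more higher, 0 lower and a median of 0.91. ASNS was at 12.82 in the 24 h control and 10.95 in the 0 h control, a difference of 1.86. PCK2, the mitochondrial enzyme that makes phosphoenolpyruvate, was at 11.53 in the 24 h control and 9.81 in the 0 h control. CTH, which makes cysteine from cystathionine, was at 11.29 in the 24 h control and 9.59 in the 0 h control, and its further probe set was higher too. The serine pathway was covered by 3 enzymes in the order of their reactions: PHGDH differed by 1.49, PSAT1 by 1.21 and PSPH by 0.33. The first and second steps were thus past 2-fold and the last was not. ALDH18A1, which starts proline synthesis, was the only member below 0, at -0.24.

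Of 15 amino acid transporters 6 were 2-fold or more higher, 0 were 2-fold lower and the median was 0.89. SLC7A11, the cystine and glutamate exchanger, was at 10.70 in the 24 h control and 8.30 in the 0 h control, and its other probe sets differed by 1.77 and 2.69. SLC1A4, a carrier of alanine, serine and cysteine, was at 9.10 in the 24 h control and 7.11 in the 0 h control, with other probe sets at 1.06 to 2.51. Both subunits of the large neutral amino acid exchanger were in the set: SLC7A5, its transport subunit, was at 12.40 in the 24 h control and 10.91 in the 0 h control, and SLC3A2, its heavy chain, at 10.83 in the 24 h control and 9.45 in the 0 h control. SLC1A5, the glutamine carrier, differed by 1.37 and the glycine carrier SLC6A9 by 1.45. The list was not uniform, since SLC38A2, a carrier often induced by amino acid shortage, differed by 0.14 and SLC7A6 by -0.49.

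The aminoacyl-tRNA synthetases, which charge tRNAs with their amino acids, divided by compartment. Among 17 cytosolic enzymes 12 were above 0, 1 was 2-fold higher and the median was 0.36. SARS1, the seryl enzyme, was at 12.82 in the 24 h control and 11.60 in the 0 h control, a difference of 1.21, and GARS1, the glycyl enzyme, differed by 0.89. Among 15 mitochondrial enzymes 14 lay below 0, with a median of -0.35. LARS2, the mitochondrial leucyl enzyme, was at 7.76 in the 24 h control and 8.84 in the 0 h control, a difference of -1.08 that its further probe set shared in sign, and MARS2 was the exception at 0.10.

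The genes that license origins, loading the MCM helicase onto DNA in G1, stood lowest. Of 16 measured members 10 were 2-fold or more lower in the 24 h control, 0 were higher, and the median was -1.18. CDT1 was at 7.67 in the 24 h control and 9.37 in the 0 h control, a difference of -1.69, and its second probe set differed by -0.91. Of the 6 subunits of the MCM ring, 5 were past 2-fold: MCM5 (-1.64), MCM4 (-1.64), MCM2 (-1.43), MCM7 (-1.40) and MCM3 (-1.13). MCM6 differed by -0.59. MCM4 was read by 5 probe sets, all of them lower in the 24 h control, with differences from -1.70 to -0.18. Within the origin recognition complex the subunits that are known to vary with the cycle were the ones apart, ORC1 by -1.44 and ORC6 by -1.21, while ORC2, ORC4 and ORC5 differed by -0.27, -0.33 and 0.16.

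All 35 measured genes of helicase activation and the replication fork were below 0, 17 were 2-fold or more lower and the median was -0.99. GINS2 was at 7.03 in the 24 h control and 9.36 in the 0 h control, a difference of -2.33, but its other probe sets differed by -0.94 and 0.43. MCM10, which helps to start the fork, was at 6.56 in the 24 h control and 8.48 in the 0 h control, and its other probe sets gave -1.61 and -1.59. The sizes for GINS2 therefore depend on the probe set, and those for MCM10 do so less. POLE2, a subunit of the leading-strand polymerase, differed by -1.56, RNASEH2A, which removes RNA primers, by -1.42, and LIG1, the ligase that joins lagging-strand fragments, by -1.35. PCNA, the sliding clamp, was at 11.14 in the 24 h control and 12.22 in the 0 h control, a difference of -1.08.

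Genes of homologous recombination and the Fanconi pathway, which repair broken and cross-linked DNA and peak in S phase, had a median of -1.0, with 11 of 21 measured members 2-fold or more lower and 0 above 0. FANCI was at 7.44 in the 24 h control and 8.85 in the 0 h control, and both of its other probe sets were lower in the 24 h control. Of the genes that make nucleotides, 3 of 15 were 2-fold lower and the median was -0.34. The members apart were those tied to DNA precursors: TK1, thymidine kinase, at 8.04 in the 24 h control and 9.81 in the 0 h control, RRM2, the regulated subunit of ribonucleotide reductase, at 10.44 in the 24 h control and 11.90 in the 0 h control, and TYMS, thymidylate synthase, at 11.44 in the 24 h control and 12.72 in the 0 h control. The purine enzymes PAICS, ATIC and GART differed by -0.29, 0.19 and -0.11.

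Among 22 G1/S cyclins, kinases, inhibitors and E2F factors 5 were 2-fold lower and 1 was 2-fold higher, with a median of -0.39. CCNE2, cyclin E2, was at 6.15 in the 24 h control and 7.86 in the 0 h control, and its further probe set differed by -1.82. CDKN1A, the p21 inhibitor of cyclin-dependent kinases, was at 9.66 in the 24 h control and 8.06 in the 0 h control. E2F8, SKP2, CDK2 and CDC25A were the other 4 genes 2-fold lower, at -1.60, -1.24, -1.05 and -1.02. The cyclins of early G1 differed less: CCND1 by -0.27 and CCND3 by -0.53, and CCND2, under the filter level in the 0 h control, ran the other way at 0.96.

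All 14 kinesins of mitosis were below 0, 5 of them 2-fold or more, with a median of -0.99. KIF20A, the kinesin of the central spindle in cytokinesis, was at 8.69 in the 24 h control and 10.71 in the 0 h control. Of 44 genes of the spindle checkpoint, kinetochore and chromosome structure, all were below 0 and 24 were 2-fold or more lower, with a median of -1.04. NCAPH, a condensin subunit, was at 7.08 in the 24 h control and 8.81 in the 0 h control. SPC25 was at 7.69 in the 24 h control and 9.41 in the 0 h control, and its partners in the NDC80 complex differed by -1.53 (NUF2), -1.5 (SPC24) and -0.78 (NDC80).

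The G2/M kinases, cyclins and subunits of the anaphase-promoting complex differed less, with 7 of 28 members 2-fold lower, 0 higher and a median of -0.73. MYBL2 (B-MYB), the factor that joins MuvB before mitosis, was at 8.86 in the 24 h control and 10.27 in the 0 h control. AURKB, the kinase that corrects kinetochore attachment, differed by -1.17 and CCNB1, cyclin B1, by -1.08. CDK1, the partner of cyclin B1, differed by -0.52. MKI67, the proliferation antigen Ki-67, was at 8.40 in the 24 h control and 9.84 in the 0 h control, and its 3 other probe sets were all lower in the 24 h control. The histone genes of S phase, whose transcripts lack poly(A) tails, had a median of 0.01 over 14 measured members.

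**Figure D2:**
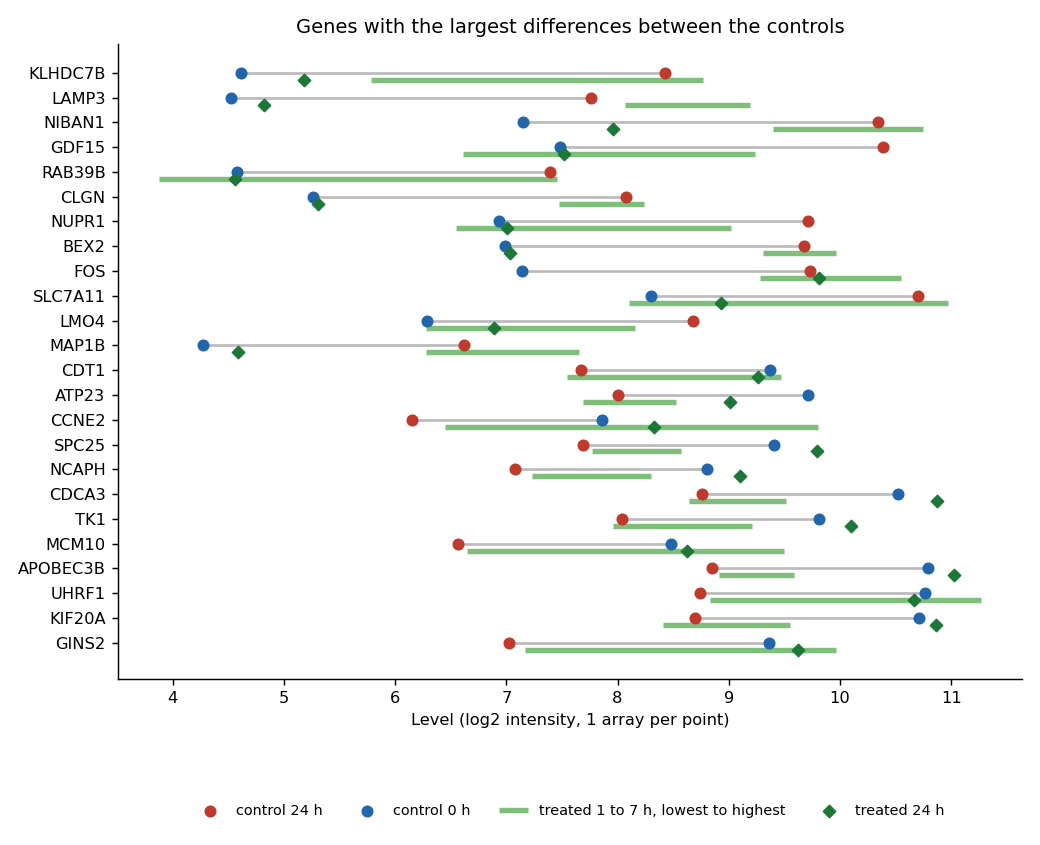
Log2 levels of the 12 genes with the largest positive and the 12 with the largest negative differences between the controls, with a red point for the 24 h control, a blue point for the 0 h control, a green bar from the lowest to the highest of the treated arrays at 1 to 7 h, and a green diamond for the treated 24 h array. For LAMP3, CLGN and BEX2 the bar lies above the 24 h control (LAMP3, 7.76) or spans it (CLGN and BEX2), and the diamond at that of the 0 h control (LAMP3 4.82 against 4.52).

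Several of the largest differences belonged to genes in none of the lists, shown in the plot of the largest differences. KLHDC7B, a Kelch-repeat protein of unsettled function, was at 8.43 in the 24 h control and 4.62 in the 0 h control, a difference of 3.81 against a level under the filter, and its second probe set differed by 1.65. LAMP3, a lysosomal membrane protein known to be induced by the unfolded protein response, was at 7.76 in the 24 h control and 4.52, also under the filter level, in the 0 h control. NIBAN1, a stress-induced regulator of translation and cell death, was at 10.34 in the 24 h control and 7.15 in the 0 h control, and its second probe set differed by 3.35. CLGN, a chaperone of the endoplasmic reticulum best known from testis, differed by 2.81 and BEX2 by 2.69. BCAT1, the cytosolic aminotransferase of branched-chain amino acids, was at 6.60 in the 24 h control and 4.27 in the 0 h control, under the filter level. Its other probe sets gave 0.71 and 2.51, so its size is uncertain on both counts.

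On the lower side UHRF1, which recruits the maintenance methyltransferase to replicated DNA, was at 8.74 in the 24 h control and 10.76 in the 0 h control. APOBEC3B, a cytosine deaminase that acts on single-stranded DNA, was at 8.85 in the 24 h control and 10.80 in the 0 h control. CDCA3, a trigger of mitotic entry, differed by -1.76 and its second probe set by -1.72. DTL, which directs CDT1 for degradation in S phase, differed by -1.55 and its second probe set by -1.54. PCLAF, a PCNA-binding protein, differed by -1.62 and its second probe set by -1.20. ATP23, a mitochondrial protease, differed by -1.70 on the probe set read but by 0.16 on its second one.

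Immediate-early genes, transcription factors and feedback regulators that growth factors and stress induce within minutes, were mostly higher in the 24 h control. Of 27 measured members 22 were above 0, 6 were 2-fold or more higher, 0 were lower and the median was 0.60. FOS was at 9.73 in the 24 h control and 7.14 in the 0 h control, JUNB at 9.98 in the 24 h control and 8.44 in the 0 h control, and EGR1 at 12.28 in the 24 h control and 11.19 in the 0 h control. EGR4, under the filter level in the 0 h control, differed by 1.64 and KLF4 by 1.22, and ATF3, already described, belongs to this list as well. NR4A1 (-0.09) and EGR3 (-0.02), which are induced by the same signals, lay near 0.

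The p53 targets had a median of 0.27, with 20 of 22 measured genes above 0 and 4 past 2-fold. GADD45A, which halts the cycle after DNA damage, was at 12.43 in the 24 h control and 10.28 in the 0 h control, PMAIP1 (NOXA), a death-promoting BCL2 relative, at 10.10 in the 24 h control and 8.42 in the 0 h control, and CDKN1A is given above. GADD45A, PMAIP1 and CDKN1A are known to be induced by ATF4 or stress without p53, and MIA PaCa-2 carries a mutant p53. What raised these genes or the other p53 targets here was not tested. MDM2, the ligase that degrades p53, differed by 1.04 and its 5 other probe sets were higher too. The other members ranged up to PHLDA3 at 0.74, with POLH lowest at -0.60.

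Smaller groups were also apart. In the metallothionein and zinc list 10 of 11 genes were above 0 with a median of 0.46, and SLC30A1, the exporter of zinc from the cell, was at 10.37 in the 24 h control and 8.58 in the 0 h control. Among 19 genes of cholesterol synthesis and uptake 15 were below 0 with a median of -0.41. ACAT2, which makes acetoacetyl-CoA, was at 9.34 in the 24 h control and 10.69 in the 0 h control, and INSIG1, the sterol-sensing brake on SREBP, differed by -1.0. SQLE, squalene epoxidase, differed by -0.05, so the pathway was not lower throughout.

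In the TGF-beta and BMP list, with a median of 0.07 over 24 genes, 3 members were 2-fold apart. The ID proteins, inhibitors of differentiation factors that BMP signals induce, differed among themselves: ID3 was at 9.90 in the 24 h control and 11.50 in the 0 h control, ID2 at 7.91 in the 24 h control and 9.11 in the 0 h control, and ID1 at 12.02 in the 24 h control and 12.31 in the 0 h control. CCN2, a matricellular protein that TGF-beta and YAP induce, was at 8.05 in the 24 h control and 6.51 in the 0 h control. Among epithelial and ductal markers S100P, a calcium-binding protein of pancreatic cancer, was at 7.53 in the 24 h control and 5.76 in the 0 h control. The remaining 8 measured members of that list lay between -0.48 and 0.39. Of 14 chemokines and cytokines 9 were above 0, CXCL3 differed by 0.94 and CXCL6, under the filter level in the 24 h control, by -1.13, and the median was 0.39. The small nucleolar RNA host genes had 6 measured members with a median of 0.40 and both signs, from DANCR at -0.65 to EPB41L4A-AS1 at 1.06, whose further probe set went the other way.

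Genes read by several probe sets gave a check that did not need a second array. Of the 289 genes 2-fold apart, 144 had further probe sets at or above the filter level and 145 did not. In 126 of the 144 (87.5%) every further probe set had the same sign, against 4035 of 7029 (57.4%) among all genes compared that had several. A second probe set was itself 2-fold apart in the same direction in 82 of the 144 (56.9%), against 2.33% among all such genes. The 7029 genes include the 144 and mostly differ by less than 2-fold. Lower shares among them are therefore partly fixed by choosing genes on size. For genes higher in the 24 h control 48 of 58 agreed throughout in sign, and for genes lower 78 of 86. Without probe sets whose names end in _s_at or _x_at, 49 of 58 genes 2-fold apart (84.5%) agreed in sign. A second probe set was then past 2-fold in 21 of the 58 (36.2%), against 1.62% of all such genes. That was 12 of 24 for genes higher and 9 of 34 for genes lower. Probe sets of one gene are read from the same RNA on the same pair of arrays, so this agreement speaks of the measurement of the transcripts and not of how well a second culture would repeat it.

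Over the 231 pairs of a kept probe set and a further one, 212 had the same sign, and the median ratio of the further to the kept difference was 0.77. The kept probe set was chosen for its level, and the gene for its size on that probe set, so a ratio under 1 is partly fixed by that choice. No pair was opposed with both members past 2-fold, and the largest opposed difference was 0.43, in GINS2. Beside GINS2 and ATP23, genes with an opposed probe set included HNRNPA2B1, SLC6A6, CCNB2, CBS and FYN.

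Averaging all probe sets of a gene, dim ones included, gave smaller sizes for several named genes. Of the 95 named genes 2-fold apart that could be averaged, 83 stayed past 2-fold and all 95 kept their sign. GDF15 was then 1.19 higher in the 24 h control, ATF3 1.42 and ASNS 0.93, and EGR4, MDM2 and EPB41L4A-AS1 were 0.83, 0.63 and 0.52 higher. GINS2 was at -0.95, SPC24 at -0.79, ATP23 at -0.77, TYMS at -0.96, CDK2 at -0.82 and CDC25A at -0.47. ASNS and the genes from EGR4 onward therefore passed 2-fold on the probe set read and not on the average.

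**Figure D3:**
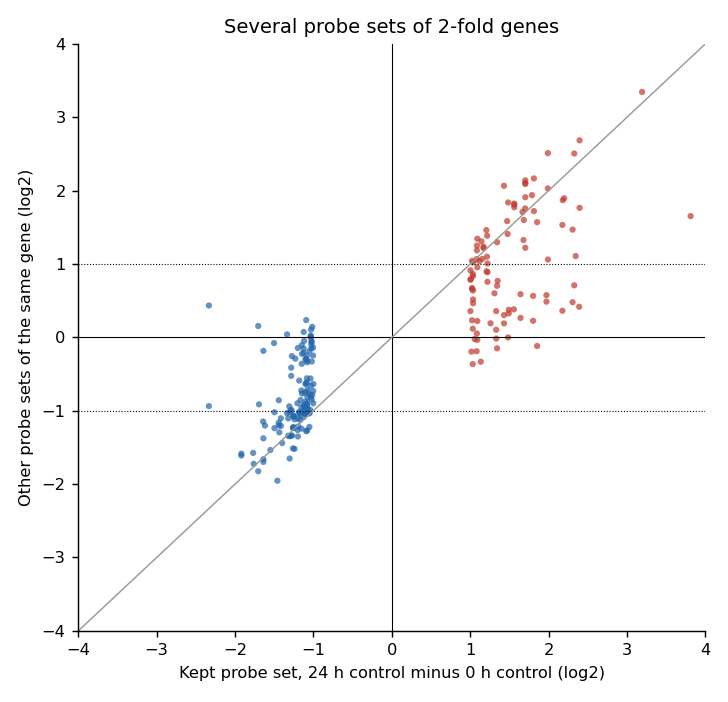
Difference between the controls in log2 units on the probe set read for a gene (horizontal) against that on each further probe set of the same gene (vertical), for the genes 2-fold apart, red where higher and blue where lower in the 24 h control. The diagonal marks equality and dotted lines mark 2-fold. Of the 231 pairs, 212 lie in the quadrants of equal sign, and none lies beyond 2-fold on opposite sides.

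Of 5636 probe sets without a single gene symbol, 16 (0.284%) were 2-fold higher and 54 (0.958%) 2-fold lower. The largest differences were those of 222156_x_at (1.89), 221511_x_at (1.81), 202532_s_at (-1.68) and 242110_at (-1.60), which carry no single gene name in the annotation used here.

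The controls stood at different distances from the treated arrays. From the 24 h control, 64 genes (0.443%) were 2-fold apart on the treated 1 h array, 158 (1.09%) at 2 h, 199 (1.38%) at 3 h, 271 (1.88%) at 4 h, 329 (2.28%) at 5 h, 380 (2.63%) at 6 h, 418 (2.89%) at 7 h and 395 (2.74%) at 24 h. From the 0 h control, 405 genes (2.8%) were 2-fold apart at 1 h, 576 (3.99%) at 2 h, 508 (3.52%) at 3 h, 445 (3.08%) at 4 h, 331 (2.29%) at 5 h, 319 (2.21%) at 6 h, 302 (2.09%) at 7 h and 96 (0.665%) at 24 h. The 24 h control was thus nearest to the shortest exposure and the 0 h control nearest to the longest one, and the controls were further from each other (289 genes) than either was from its nearest treated array. Each series of counts shares its control array, and both share the treated arrays. The labels were taken as given: an exchange of the control labels was not tested, and it would turn the sign of every difference between the controls given here. No array gives an untreated culture between 0 and 24 h, so the course of the difference was not observed.

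**Figure D4:**
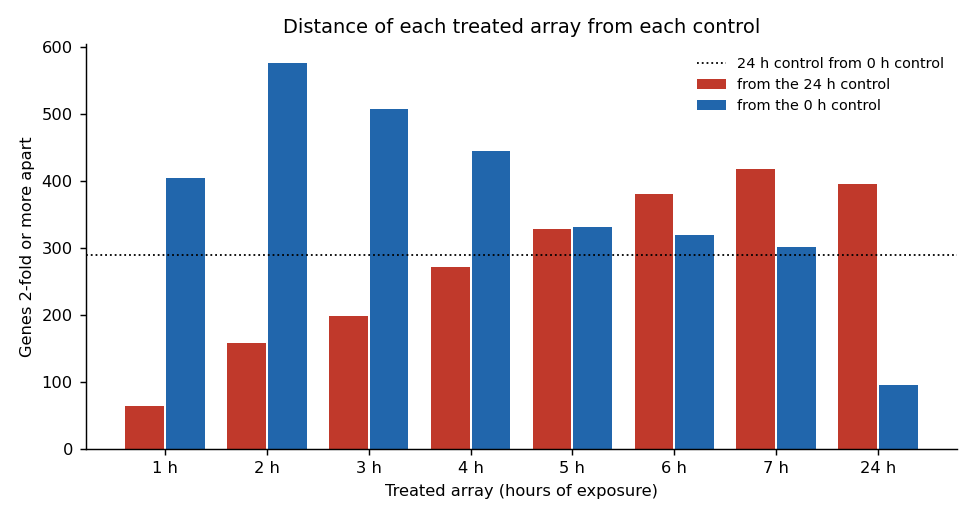
Number of genes 2-fold or more apart between each treated array and the 24 h control (red) or the 0 h control (blue), by hours of exposure. The dotted line marks the 289 genes apart between the controls. Red bars run from 64 at 1 h to 418 at 7 h, and the blue bar is at 96 at 24 h.

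The lists were also followed across the arrays with each gene set against its own mean over the 10 arrays. The median of the ATF4 list was -0.27 in the 0 h control, 0.80, 0.29, 0.15, -0.15, -0.29, -0.48 and -0.55 at 1 to 7 h of exposure, -0.16 at 24 h of exposure and 1.01 in the 24 h control. The licensing list ran the other way, at 0.44 in the 0 h control, -0.82 at 1 h, 0.72 at 7 h, 0.50 at 24 h of exposure and -0.69 in the 24 h control. The spindle list was at 0.76 in the 0 h control, -0.26 at 1 h, -0.43 at 2 h, 0.12 at 7 h, 0.95 at 24 h of exposure and -0.25 in the 24 h control. The ATF4 list was thus high in the 24 h control and at 1 h and nearer its mean from 2 h on. The 0 h control lay between the treated 4 and 5 h arrays in the ATF4 list and between the 5 and 6 h arrays in the licensing list. In the licensing list (0.44) the treated 5 h array (0.40) was only slightly nearer to it than the treated 24 h array (0.50). In the spindle list (0.76) and the kinesin list (0.75) the treated 24 h array was the nearest, at 0.95 and 0.96. Cholesterol genes were at -0.02 in the 0 h control, 0.77 on the treated 24 h array and -0.34 in the 24 h control.

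**Figure D5:**
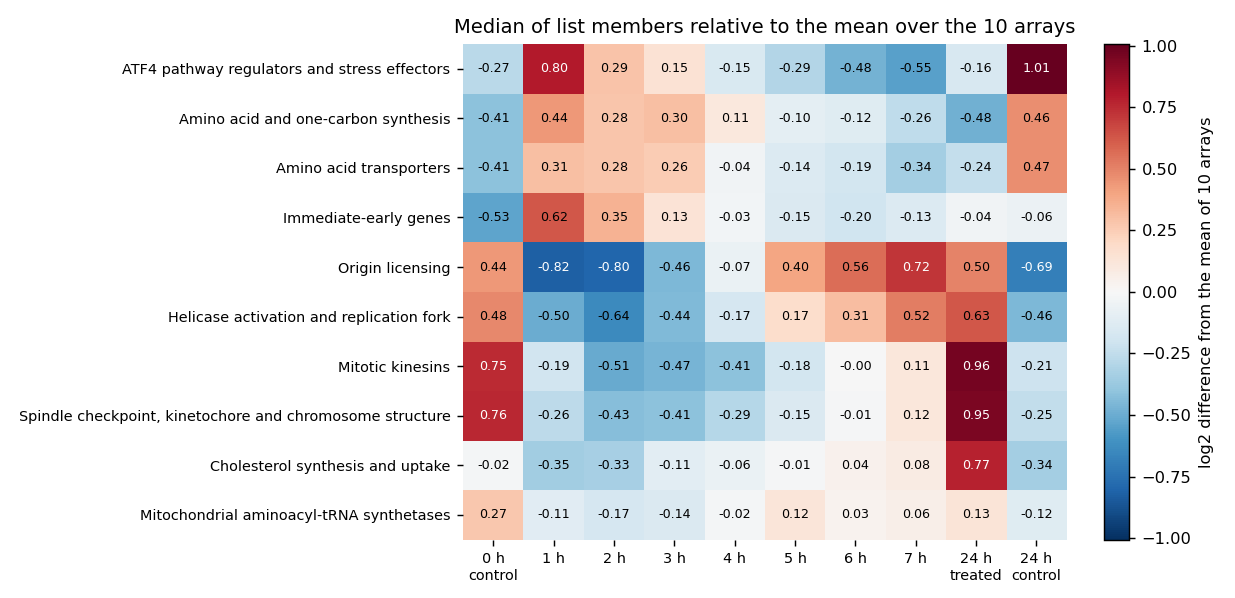
Median over the measured members of 10 gene lists, each gene relative to its own mean over the 10 arrays in log2 units, with arrays as columns (the 0 h control, treated 1 to 7 h, treated 24 h, then the 24 h control) and red for higher and blue for lower. The 24 h control column resembles the 1 h column for the ATF4 list (1.01 in the 24 h control, 0.80 at 1 h) and for origin licensing (-0.69 in the 24 h control, -0.82 at 1 h).

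A comparison that used neither control was made within the treated arrays, the 24 h array minus the mean of the 5, 6 and 7 h arrays. It held 122 genes (0.845%) 2-fold higher and 72 (0.499%) 2-fold lower in the later array. Across the 14439 genes its differences had a Pearson correlation of -0.24 and a Spearman correlation of -0.14 with the difference between the controls, given as a description, since genes of one array are not independent. The mitotic lists carried opposite signs in the 2 comparisons: the median of the kinesins was 1.10 in the treated comparison and -0.99 between the controls, and that of the spindle list 0.98 in the treated comparison and -1.04 between the controls. The ATF4 list had a median of 0.23 in the treated comparison and 1.42 between the controls, and origin licensing 0.02 in the treated comparison and -1.18 between the controls. For single genes, LAMP3 differed by -3.94 in the treated comparison and by 3.24 between the controls, each against a level under the filter, and GDF15 by 0.88 in the treated comparison and 2.91 between the controls.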

How the data were processed

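Total RNA of MIA PaCa-2 cells was measured on 10 arrays, 1 per condition, so the number of arrays limits the precision and no test between the controls exists. The authors deposited log2 intensities of 54675 probe sets. RMA, with no version, is the method named per the submitters' processing notes. RMA includes quantile normalization, so a shift common to all genes would not be seen. A second deposited table held 7622 of the probe sets, with the same log2 values within 5e-09, and served as an alternative. Its filter rule is not given in the sources used here.

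Probe sets were named from the platform annotation, in which 0 symbols needed an update from RefSeq (GRCh38.p14), and those with several or no symbols were compared apart. For each gene the probe set of highest average level was read, and the gene was kept where that average reached the 40th percentile over all probe sets (log2 4.95). Genes were counted at a log2 difference of 1 or more. The 43 gene lists and the comparison itself were chosen with earlier results of these data known. The named genes were the 12 largest differences each way, the 10 largest each way with agreeing probe sets and up to 6 members of each list described. All of them entered the counts of named genes, but not all are described in the text. Further list members were given for contrast and chosen after their values were seen. A list was described where its median was 0.3 or more in size or 10% of its members were 2-fold apart. The counting was checked on simulated data, in which differences larger than the call size were planted on every probe set of chosen genes. That check says nothing of whether a call in these data would repeat. Cyclic loess used limma 3.58.1 under R 4.3.3, and the rest pandas 2.3.3, numpy 2.4.6 and matplotlib 3.10.9 under Python 3.11.15.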

Additional observations from a re-analysis of the deposited data

How the results depend on the processing

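No paired analysis was possible because each group held 1 array. Against 108 genes 2-fold higher and 181 lower in the 24 h control, there were 209 higher and 358 lower with each probe set on its own, 403 higher and 692 lower at 1.5-fold, and 39 higher and 23 lower at 3-fold. Elsewhere they lay between 78 and 115 higher and between 129 and 182 lower. Cyclic loess kept 261 of the 289 genes, renewed quantile normalization 262 and averaging over probe sets 199 of 283, with 0 reversed. Of 189 list medians 176 stayed within 0.200 of the main value. That margin is the median SD over single genes between neighbouring treated hours. It is a wide margin for a list median, which varies less than a single gene, and settings that changed only the filter left the values of kept members as they were. The ATF4 list had 1.15 when probe sets were averaged. In the filtered table the medians were 1.42 for amino acid synthesis, 0.66 for cytosolic synthetases, -0.80 for nucleotide synthesis and -0.40 for epithelial markers, where fewer members were measured. Amino acid transporters were at 1.18 in the filtered table, with a filter at the 60th percentile and with one at the 40th percentile over genes, which was chosen after seeing the data. The small nucleolar RNA host genes changed sign, at -0.021 without a filter and in the filtered table, and were at 0.81 under both stricter filters. Chemokines were at 0.17 without a filter. Of 1228 values for 140 named genes 1181 stayed within the same margin, and ZFAS1 changed sign, at -0.49 in the filtered table. Settings that changed only the filter left the value of a kept gene as it was, so much of this count was fixed in advance. Most of the values that moved came from averaging over probe sets. With dim probe sets included, agreement in sign was 80.7%.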

Other observations

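Genes in none of the lists numbered 58 of the 108 that were 2-fold higher in the 24 h control and 93 of the 181 that were 2-fold lower, and those named here were chosen after their values were seen. Higher in the 24 h control were SAT1, the rate-limiting enzyme of polyamine breakdown (12.77 in the 24 h control, 10.96 in the 0 h control), BTG1, an antiproliferative factor (10.83 in the 24 h control, 9.35 in the 0 h control), and ARG2, mitochondrial arginase (10.41 in the 24 h control, 8.86 in the 0 h control, with a second probe set at 0.38). ULBP1, a stress ligand of the natural killer cell receptor NKG2D, differed by 1.58, whereas MICB, another ligand of that receptor, differed by -1.22. Lower in the 24 h control were DNMT1, the maintenance DNA methyltransferase (10.43 in the 24 h control, 11.53 in the 0 h control), CHAF1B, a histone chaperone subunit (7.70 in the 24 h control, 8.77 in the 0 h control), and HELLS, a chromatin remodeller (8.35 in the 24 h control, 9.61 in the 0 h control). LMNB1, a lamin of the nuclear envelope, differed by -1.16.

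The 22 lists not described above had medians between -0.29 and 0.28. Of their 421 members 9 were 2-fold higher and 1 was 2-fold lower. Over all 14439 genes compared, 108 (0.748%) were higher and 181 (1.25%) lower. A gene counted once for each list that held it, and SLC7A11, CCN2 and PMAIP1, given above with other lists, were among the 9. Within the endoplasmic reticulum list (median 0.10 over 21 genes) the members were split. ERN1 (IRE1), the sensor kinase, was at 9.36 in the 24 h control and 7.56 in the 0 h control, but its other probe sets differed by 0.23 and 0.57. XBP1, whose transcript it splices, was at 11.13 in the 24 h control and 9.89 in the 0 h control. SDF2L1 and CRELD2, proteins of the endoplasmic reticulum, differed by -0.79 and -0.67. In the lysosome and autophagy list WIPI1 differed by 1.47 and MAP1LC3B by 1.14, both known to act in autophagosome formation. Heat shock genes were below 0 in 14 of 16 members with a median of -0.29, and respiratory chain genes in 29 of 30 with a median of -0.25, and 0 genes of either list were 2-fold apart.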
